A study of Homo sapiens with 8 samples.

Results

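Small nuclear RNA (snRNA) genes were followed in PC3 cells, an established prostate cancer cell line, after silencing of IER5L, an immediate early response family gene. The set was chosen with earlier results of these data known. Its members were all genes that GENCODE types as snRNA with at least 20 counts summed over the 8 samples, whatever the group, and were grouped by symbol. This gave 161 of the 1900 snRNA genes in a table of 58051 genes, with 26 U1, 8 U2, 11 U4, 8 U5, 92 U6 and 8 U7 genes and 8 genes of the minor spliceosome. Both groups were PC3 cells transduced with a lentiviral short hairpin and selected with puromycin. The 4 shScramble samples carried a scrambled hairpin and the 4 shIER5L samples carried a single hairpin against IER5L (sh2 IER5L), so a response to that hairpin cannot be told apart from a response to the loss of IER5L. The replicates were separate plates, seeded alongside those for a proteome, and p-values therefore measure the spread between plates.

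snRNAs are short RNAs that do not code for protein and that form, with Sm or LSm proteins, the snRNPs of the spliceosome. U1 pairs with the start of the intron and U2 with the branch site, whereas U4, U5 and U6 join as a tri-snRNP that forms the catalytic centre. A separate minor spliceosome uses U11, U12, U4ATAC and U6ATAC for a small class of introns, and U7 acts outside splicing, in the processing of histone messenger RNA ends. Most snRNAs are transcribed by RNA polymerase II and cleaved by the Integrator complex, U6 and U6ATAC are transcribed by RNA polymerase III, and none carries the poly(A) tail by which messenger RNA is usually captured.

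The human genome holds many near-copies of each snRNA, and the snRNA genes that passed the test in shIER5L cells were U1 copies that differ in sequence from the canonical U1 gene. The canonical gene RNU1-1 and the 4 U1 copies that passed the test are therefore shown first, from the GRCh38 genome, 5′ to 3′ on the strand of each gene. Of the 19 U1 genes tested, only 3 were identical to RNU1-1, so most differed from it whether or not they passed. Capitals mark 2 searched strings, ACTTACCTG within the first 20 bases, the stretch by which U1 pairs with the start of an intron, and ATTTGTG, the site bound by Sm proteins.
RNU1-1: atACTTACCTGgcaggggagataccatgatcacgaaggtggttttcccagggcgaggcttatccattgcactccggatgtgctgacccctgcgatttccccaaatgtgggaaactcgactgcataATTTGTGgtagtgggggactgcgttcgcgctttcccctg
RNVU1-27: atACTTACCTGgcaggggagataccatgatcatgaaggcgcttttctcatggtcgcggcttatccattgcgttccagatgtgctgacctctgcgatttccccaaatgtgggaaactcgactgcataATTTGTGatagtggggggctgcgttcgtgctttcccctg
RNVU1-25: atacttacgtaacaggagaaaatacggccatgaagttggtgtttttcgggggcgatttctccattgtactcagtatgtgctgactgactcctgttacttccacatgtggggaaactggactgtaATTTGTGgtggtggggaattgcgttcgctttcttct
RNVU1-4: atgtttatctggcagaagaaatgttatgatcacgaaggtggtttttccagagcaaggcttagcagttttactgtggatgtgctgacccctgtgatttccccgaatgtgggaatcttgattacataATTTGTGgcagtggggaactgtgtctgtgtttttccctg
RNVU1-3: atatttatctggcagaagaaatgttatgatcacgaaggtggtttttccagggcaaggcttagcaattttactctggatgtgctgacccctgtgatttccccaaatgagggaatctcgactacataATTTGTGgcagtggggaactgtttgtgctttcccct
RNU1-1 lies at chr1:16514122-16514285 on the minus strand, and the 4 copies lie on the plus strand of the same chromosome, RNVU1-27 at chr1:148522601-148522765, RNVU1-25 at chr1:146409903-146410062, RNVU1-4 at chr1:120942600-120942763 and RNVU1-3 at chr1:148402715-148402875. Counted as edits to RNU1-1 (substituted, inserted and deleted bases), RNVU1-27 differed by 14, RNVU1-3 by 26, RNVU1-4 by 33 and RNVU1-25 by 47. RNVU1-27 kept the pairing stretch unchanged. Numbered from the first base of RNU1-1, the first 20 bases of RNVU1-25 carried C9G, G11A, G12A, G17A and G20A, those of RNVU1-4 carried A3G, C4T, C8T, G16A, G17A and G20A, and those of RNVU1-3 carried C4T, C8T, G16A, G17A and G20A. The Sm string was present in all 4.

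RNU4-2, the member with the most counts, and RNU4ATAC, the leading gene of the minor spliceosome, are shown for their Sm site, the searched string ATTTTTG, in capitals.
RNU4-2: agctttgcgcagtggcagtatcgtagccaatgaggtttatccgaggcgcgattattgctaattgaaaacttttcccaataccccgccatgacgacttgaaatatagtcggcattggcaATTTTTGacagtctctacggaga
RNU4ATAC: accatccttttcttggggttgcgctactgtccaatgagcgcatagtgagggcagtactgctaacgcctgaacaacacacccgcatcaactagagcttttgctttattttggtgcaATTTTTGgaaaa
RNU4-2 lies at chr12:120291763-120291903 on the minus strand, 4 edits from its neighbour RNU4-1. RNU4ATAC lies at chr2:121530881-121531007 on the plus strand, in an intron of CLASP1, which runs on the opposite strand.

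The 8 libraries held between 21512128 and 24662190 counts, of which the 161 snRNA genes took only 0.0106% to 0.0147%. Most snRNA genes had few or no counts, with 1123 of the 1900 at 0 in every sample and 616 with 1 to 19 counts. Members ranged from 20 to 1536 counts over the 8 samples, 45 had at least 100, and 58 had between 20 and 30. The threshold cut through a dense part of the range, since 5 members, RNU6-433P and RNU6-476P among them, had exactly 20 counts and 13 snRNA genes, RNU6-1024P and RNU6-1294P among them, had 19. Symbols that end in P, given to pseudogenes, made up 124 of the 161 members and 86 of the 92 U6 members.

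Sources disagree on how the RNA was captured, since the methods name a total RNA kit with ribosomal depletion and the sample records a messenger RNA kit, and the levels below are those of whichever kit was used. Short structured RNAs were counted very unevenly. The signal recognition particle RNA RN7SL2 had 1512 and the Cajal body RNA SCARNA7 528.1 CPM per kb of gene (CPM, counts scaled to a common library size), whereas the highest snRNA gene, RNU4-2, had 59.1. RN7SK, RMRP and RPPH1, abundant RNAs of RNA polymerase III, were at 0. The zeros were not limited to these, since RN7SL1, SCARNA2 and SNORA73A were at 0 too. Single snRNA genes at 0 included RNU2-1, which has 10 other genes of identical sequence, and RNU2-2P, RNU7-1 and RNU12, each covered over its whole length by an exon of another annotated gene, where the counting assigns a shared read to neither gene. The cause of the zeros was not tested, and a 0 does not show that the RNA was absent.

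The group labels were checked on IER5L. IER5L itself was at 3.91, 6.51, 5.62 and 3.23 CPM in the shScramble samples and at 2.73, 3.02, 2.04 and 1.32 in the shIER5L samples, with no overlap (log2 fold change -1.08, SE 0.248, adjusted p = 0.0212, edgeR quasi-likelihood test). The epithelial genes KRT8, KRT18, KRT19 and EPCAM had group means from 26.9 to 481.3 CPM. None of them was called, and they do not bear on the group labels.

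U1, which recognises the start of introns, took 46.2% of all member counts. The 26 U1 genes summed to 72.9, 62, 63.5 and 70.3 CPM in the shScramble samples and to 46.4, 55.2, 53.5 and 53 CPM in the shIER5L samples. Each shIER5L sample was below each shScramble sample, and the shIER5L mean of 52 ± 3.86 was 77.4% of the shScramble mean of 67.2 ± 5.24 (SD, n = 4, log2 difference -0.37, SE 0.0789). In bulk RNA, fewer cells with these RNAs and less of them per cell cannot be told apart. The lower sum did not rest on the 4 copies that passed the test, since the other 22 U1 genes summed to 53.2, 44.4, 46.7 and 50.6 CPM against 34.7, 42.3, 41.6 and 40.3, again without overlap (log2 difference -0.29). shIER5L replicate 1 was the lowest library for U1, and without it the difference over the 26 genes was -0.31. Sums over members are given as descriptions without a test.

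Of the 161 members, 50 passed the filter on low counts and were tested and 111 were not. All 4 members called at an adjusted p under 0.05 were U1 copies and all were lower in shIER5L, beside 1.46% of all 16959 genes tested that were called lower, 2.46% called higher and 3.93% called in either direction (edgeR quasi-likelihood test, Benjamini-Hochberg adjustment over all genes tested). None of the 31 tested members of other families was called. At an unadjusted p under 0.05, 12 tested members were lower and 1 was higher, beside 6.78% and 9.69% of all genes tested. Of the 4 called members, 3 also changed by 0.5 or more on the log2 scale, as did 0.790% of all genes tested.

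RNVU1-27, the U1 copy with the most counts and an intact pairing stretch, was at 10.9, 8.88, 8.03 and 10.7 CPM in shScramble and at 6.53, 7.56, 6.7 and 7.26 CPM in shIER5L. The groups did not overlap, and the level in shIER5L was 72.8% of that in shScramble (log2 fold change -0.45, SE 0.120, adjusted p = 0.0455). RNVU1-25, the copy farthest from RNU1-1 among the called ones, was at 4.34, 3.55, 4.38 and 3.72 CPM in shScramble and at 2.65, 2.52, 3 and 2.69 CPM in shIER5L. It too showed no overlap, with a log2 fold change of -0.56 (SE 0.147, adjusted p = 0.0452). Both lie outside other genes.

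RNVU1-4 and RNVU1-3 share 5 of the substitutions shown above and differ by 13 edits over their whole length. RNVU1-4 was at 2.64, 3.97, 3.41 and 3.5 CPM in shScramble and at 1.85, 2.14, 1.58 and 2.15 CPM in shIER5L, with every shIER5L sample below every shScramble sample (log2 fold change -0.81, SE 0.180, adjusted p = 0.0177). RNVU1-3 was at 1.79, 1.23, 1 and 1.79 CPM in shScramble and at 0.617, 0.63, 0.624 and 0.594 CPM in shIER5L. Its shIER5L samples were nearly equal to each other and were 42.4% of the shScramble mean, the largest fall among the called members (log2 fold change -1.22, SE 0.282, adjusted p = 0.0216). RNVU1-4 lies in an intron of LINC00623, a long non-coding RNA gene on the same strand whose log2 fold change was 0.56 (SE 0.208, adjusted p = 0.174), and RNVU1-3 lies in an intron of PDE4DIPP6 (-0.02, SE 0.144, adjusted p = 0.967).

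These calls were close to the threshold. With 1 sample left out at a time, the number of called members ran from 0 to 3, and none was called without shScramble replicate 4 or without shIER5L replicate 3. RNVU1-4 and RNVU1-3 each passed in 4 of the 8 such fits, RNVU1-27 in 2 and RNVU1-25 in none, and all 4 stayed lower throughout. Without shScramble replicate 4, RNVU1-4 had a log2 fold change of -0.80 (adjusted p = 0.0509) and RNVU1-3 of -1.10 (adjusted p = 0.0812), and without shIER5L replicate 3 they had -0.73 (adjusted p = 0.0705) and -1.23 (adjusted p = 0.0664).

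**Figure D1:**
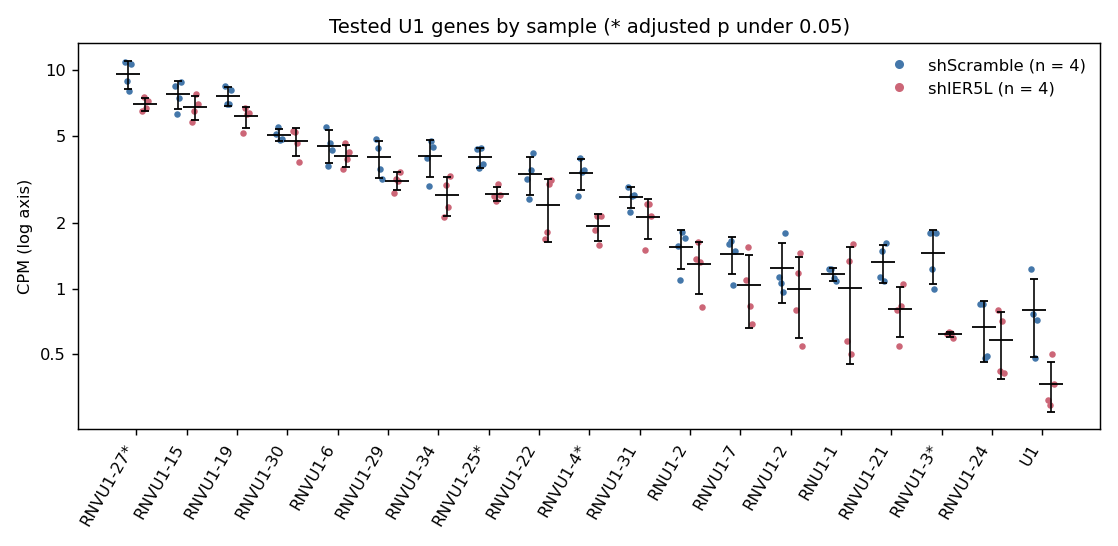
CPM (y axis, log scale) of the 19 tested U1 genes in order of their counts, each point a sample, 4 shScramble and 4 shIER5L, with the mean and SD in black and a star on the 4 genes at an adjusted p under 0.05. The called genes are spread over the range of levels, from RNVU1-27 at 9.63 CPM to RNVU1-3 at 1.45 CPM in shScramble.

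The remaining U1 genes moved less or varied more. RNVU1-15, next to RNVU1-27 in level, was at 7.76 ± 1.14 CPM in shScramble and 6.77 ± 0.829 in shIER5L (SD, n = 4), and the groups overlapped (log2 fold change -0.19, adjusted p = 0.515). RNVU1-19 did not overlap between groups, at 6.98 to 8.48 CPM against 5.16 to 6.72 (log2 fold change -0.31, adjusted p = 0.198). RNVU1-30, which differs from the called RNVU1-4 by 7 edits, was nearly level at 5.05 ± 0.326 against 4.73 ± 0.679 CPM (log2 fold change -0.09, SE 0.135, adjusted p = 0.806). The difference between these near-copies was not tested. RNVU1-34, the fifth by p, lies on chromosome 17 in an intron of TEX14 and was at 4.02 ± 0.778 against 2.69 ± 0.54 CPM, with overlap (log2 fold change -0.58, SE 0.185, adjusted p = 0.104). RNVU1-6, RNVU1-29 and RNVU1-22 had log2 fold changes of -0.15, -0.35 and -0.48 (adjusted p = 0.705, 0.289 and 0.292).

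Members of canonical U1 sequence are counted as several genes. The table holds 8 genes identical to RNU1-1, among which a read that matches all of them is placed as 1 primary alignment. Their counts were uneven, with 654 for RNVU1-29, 262 for RNU1-2, 199 for RNU1-1, 71 for RNVU1-18, 3 for RNU1-3 and 1 for RNU1-4. RNVU1-18 was 1 of the 2 U1 members above 0, at 5, 10, 4 and 4 counts in shScramble against 8, 15, 16 and 9 in shIER5L (log2 fold change 1.04, SE 0.467), while the identical RNVU1-29 was at -0.35. Summed over the 8 identical genes, canonical U1 was at 7.92, 7.14, 6.7 and 6.14 CPM against 5.07, 6.85, 5.66 and 6.26 CPM. The sums overlapped, at 85.4% of the shScramble mean (log2 difference -0.23, SE 0.121).

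To include the genes too low for the filter, a second fit kept every gene with at least 20 counts, 22903 in all, of which 49.6% had a log2 fold change below 0. In that fit, 24 of the 26 U1 genes were below 0, with a median log2 fold change of -0.35, beside a median of 0.00 over all genes. By distance from RNU1-1, the 4 identical members had a median of -0.23 (3 below 0), the 8 with 1 to 20 edits -0.30 (8 below 0) and the 14 with over 20 edits -0.51 (13 below 0). The interquartile ranges, -0.45 to -0.27 and -0.77 to -0.22 for the latter 2 sets, overlapped. U1 genes with the pairing stretch ACTTACCTG (10 of 26) had a median of -0.30 and those without it (16) -0.51. Their interquartile ranges, -0.43 to -0.22 and -0.78 to -0.19, overlapped as well, with 9 and 15 genes below 0. The stretch was found in 38.5% of U1 members and 34.5% of all 145 U1 genes of the table, and the Sm string ATTTGTG was in 80.8% of members and 55.2% of all U1 genes, both searched on the strand of the gene. By position, the medians were -0.46 for the 13 U1 genes in introns and -0.31 for the 13 outside other genes, 12 of each below 0. Here too the interquartile ranges, -0.77 to -0.25 and -0.45 to -0.19, overlapped.

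**Figure D2:**
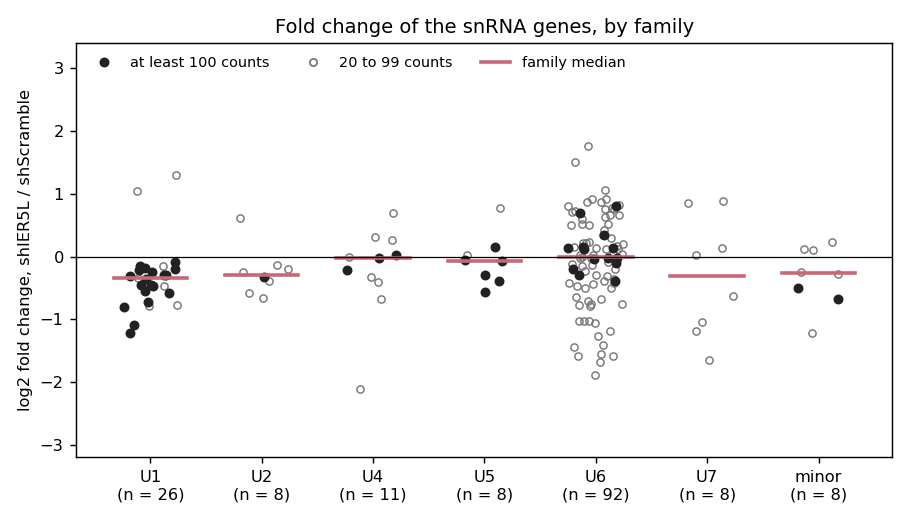
Log2 fold change of shIER5L over shScramble (y axis) of all 161 members by family, from the fit of genes with at least 20 counts, with filled points for members of at least 100 counts, open points for 20 to 99 counts and a bar at each family median. U1 points lie mostly below 0 (median -0.35), whereas the 92 U6 points spread evenly about 0 (median -0.01).

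U2, which pairs with the branch site, was represented by copies only, since the canonical RNU2-1 and RNU2-2P were at 0. RNU2-63P, a copy outside other genes, held most U2 counts. It differed from RNU2-1 by 44 edits and lacked GTAGTA, the string searched for branch site recognition, which 62.5% of U2 members held. RNU2-63P was at 3.39, 4.02, 3.17 and 3.41 CPM in shScramble and at 1.68, 3.36, 3.29 and 2.74 CPM in shIER5L. The groups overlapped (log2 fold change -0.33, SE 0.196, adjusted p = 0.437), and shIER5L replicate 1 was far below the rest. The next copies, RNU2-29P with 75 counts and RNU2-27P with 44, were too low to test. Summed over the 8 U2 members, the levels were 5.33, 5.33, 4.66 and 5.06 CPM against 2.91, 4.5, 4.33 and 4.52 CPM. The sums did not overlap (log2 difference -0.35, SE 0.160), but without shIER5L replicate 1 the difference shrank to -0.19, still without overlap.

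U4, the partner that holds U6 inactive, and U5, which aligns the exons, are read from genes without identical copies. How well reads were told apart between near-copies was not tested. RNU4-2, the member with the most counts, was at 10.3, 6.6, 9.07 and 7.66 CPM in shScramble and at 7.67, 10.5, 7.49 and 7.26 CPM in shIER5L, and RNU4-1 was at 6.08, 6.13, 6.06 and 3.9 against 5.6, 6.89, 5.87 and 4.07 CPM. Neither differed beyond its spread (log2 fold changes -0.03, SE 0.151, and 0.02, SE 0.172, adjusted p = 0.961 and 0.978). The third U4 gene, RNU4-25P, overlaps an exon of a long non-coding RNA gene on the other strand and had a log2 fold change of -0.23 (adjusted p = 0.823). The U4 sums were 16.1 ± 2.36 against 15.7 ± 2.54 CPM (SD, n = 4).

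Among U5 genes, the variants RNU5D-1, RNU5F-1 and RNU5E-1, at 31.4, 17.5 and 17.0 CPM per kb, stood above RNU5A-1 and RNU5B-1, at 12.3 and 8.87 CPM per kb. RNU5E-1 was at 1.6, 3.17, 2.25 and 2.73 CPM in shScramble and at 1.59, 1.72, 1.58 and 1.69 CPM in shIER5L, so that shScramble replicate 1 lay among the shIER5L samples (log2 fold change -0.57, SE 0.216, adjusted p = 0.180). RNU5D-1 went from 4.03 ± 0.759 to 3.25 ± 0.632 CPM and RNU5F-1 from 2.33 ± 0.401 to 1.76 ± 0.628 (SD, n = 4), both with overlap (adjusted p = 0.432 and 0.475). RNU5A-1 was level, at 1.46 ± 0.122 against 1.39 ± 0.0909 CPM. The U5 sums overlapped (log2 difference -0.24, SE 0.136), at -0.15 without shIER5L replicate 1.

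U6, the catalytic snRNA made by RNA polymerase III, had the most members but only 24.5% of member counts, and its summed level was alike in both groups. The 92 U6 genes summed to 32, 32.7, 29.1 and 33 CPM in shScramble and to 29, 30.2, 29.7 and 36.8 CPM in shIER5L, with shIER5L replicate 4 above all others. The means were 31.7 ± 1.79 and 31.4 ± 3.63 CPM (SD, n = 4, log2 difference -0.02, SE 0.0897), and 46 of the 92 genes were below 0. The ratio of summed U1 to summed U6 CPM was 2.28, 1.9, 2.19 and 2.13 in shScramble and 1.6, 1.83, 1.8 and 1.44 in shIER5L, without overlap, and being taken within a library it does not depend on the scaling. Both sums came mostly from variant copies. Genes identical to RNU1-1 held 5.02% of member counts and genes identical to RNU6-1 held 4.48%, and the sum of each of these sets overlapped between groups. The ratio is therefore not one of canonical U1 to canonical U6.

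RNU6-8 had the highest U6 count, at 3.58, 4.06, 3.29 and 4.26 CPM against 4.32, 3.36, 5.12 and 3.93 CPM, with overlap (log2 fold change 0.14, SE 0.157, adjusted p = 0.734). Its identical copy RNU6-7 had 18 counts against 736. RNU6-26P, in an intron of DCBLD2 on the same strand, was at 3.16 ± 0.655 against 2.58 ± 1.04 CPM (SD, n = 4, adjusted p = 0.629), while DCBLD2 itself was called higher (log2 fold change 0.17, SE 0.0406, adjusted p = 0.0242). RNU6-2 was at 1.59 ± 0.186 against 1.38 ± 0.416 CPM (adjusted p = 0.764). The 3 tested members next in p among those higher in shIER5L were RNU5A-8P, RNU6-1246P and RNU6-36P, with log2 fold changes of 0.78, 0.68 and 0.42 and overlapping groups (adjusted p = 0.445, 0.470 and 0.641).

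RNU6-4P was the 1 tested member that was higher at an unadjusted p under 0.05, at 0.66, 0.761, 0.763 and 0.627 CPM in shScramble and at 0.882, 1.22, 0.915 and 1.92 CPM in shIER5L, without overlap (log2 fold change 0.80, SE 0.306, adjusted p = 0.187). It is 1 of 7 genes identical to RNU6-1, RNU6-2 and RNU6-9 among them, between which the counts of a shared read cannot be divided. Summed over the 7 genes, the levels were 5.28, 5.96, 5.5 and 5.33 CPM against 6, 5.04, 5.91 and 7.22 CPM, which overlapped (log2 difference 0.12, SE 0.113). The higher level of RNU6-4P was thus not shown by the sum of its identical genes.

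The 8 minor spliceosome members were lower as a sum, at 5.56, 4.52, 5.02 and 3.99 CPM in shScramble against 3.26, 3.4, 3.95 and 3.65 CPM in shIER5L. The groups did not overlap, with shScramble replicate 4 and shIER5L replicate 3 nearly equal (log2 difference -0.41, SE 0.119). RNU4ATAC, whose RNA pairs with U6ATAC, was at 2.78, 2.07, 2.13 and 1.48 CPM against 1.01, 1.22, 1.46 and 1.6 CPM (log2 fold change -0.67, SE 0.235, adjusted p = 0.142). RNU6ATAC went from 1.05 ± 0.118 to 0.731 ± 0.195 CPM (SD, n = 4), without overlap (log2 fold change -0.51, SE 0.285, adjusted p = 0.411). Neither was called. RNU11 had 52 counts, with 131 of its 134 bases in an exon of another gene, and the other 5 minor members had fewer than 100 counts each. In the fit of genes with at least 20 counts, 5 of the 8 minor members were below 0 and 3 above. RNU11 was among those above (log2 fold change 0.10, SE 0.604). The lower sum therefore does not show a fall of every minor spliceosome RNA. The 8 U7 members were all low copies inside introns, led by RNU7-18P with 63 counts, and their sums overlapped at 1.55 ± 0.496 against 1.45 ± 0.3 CPM.

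Over all 161 members, 98 had a log2 fold change below 0 and the median was -0.15. The shScramble and shIER5L samples did not overlap in 11 members that were lower and 1 that was higher, beside 3.94% and 5.04% of all genes with at least 20 counts. Of the 11, 6 were U1 genes (the 4 called ones, RNVU1-19 and RNVU1-21), and the 92 U6 genes had 2 lower and 1 higher, a share no greater than that of all genes. Precision was limited, since the tested members had a median SE of 0.283 on the log2 scale against 0.109 for all genes tested.

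Members inside other genes had fewer counts than those outside. Of the members, 124 lay in introns, with a median of 34 counts, whereas the 35 outside other genes had a median of 188 and 26 of them had at least 100 counts. U6 and U1 differed in this, with 79 of 92 U6 members in an intron against 13 of 26 U1 members, and genes outside others held 71.8% of U1 counts and 30.6% of U6 counts. Host genes were mostly protein-coding (109 of 124) and well counted, with a median of 14818.5 counts. Reads from an unspliced host transcript that cover the snRNA gene are counted for it. Because the counting used no strand, this holds for the 56 members on the strand opposite to their host as well as for the 68 on the same strand. The Spearman correlation between the counts of member and host was -0.113 over the 124 intron members and 0.174 over the 79 U6 genes among them, and that between their log2 fold changes was 0.0873 over the 118 with a tested host. These are descriptions over genes that share the same 8 libraries.

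The distal promoter element of snRNA genes holds the octamer ATGCAAAT, bound by the POU factor POU2F1, which was searched on both strands in the 250 bases before each gene. It was found for 12 of the 45 members with at least 100 counts (26.7%) and for 4 of the 116 below (3.45%). The share was 3.92% among the 1123 snRNA genes at 0 and 1.63% among 35116 human promoter windows of the same length from RefSeq. RNU4-2, RNU6-8, RNU6-1, RNU6-9, RNU5A-1, RNU5B-1, RNU5E-1, RNU5F-1, RNU4ATAC and RNU2-63P had a match. None of the 26 U1 members had one within this window, which says only that these letters were not there. Members had been chosen by level, so this is a description of the more counted members. Of the stretches within the genes, ACAGAGA, the box by which U6 pairs with the start of the intron, was in 55.4% of U6 members and 53.7% of all 1310 U6 genes, and CCTTTTAC, in the loop by which U5 holds the exon ends, was in all 8 U5 members and 74.2% of all U5 genes.

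The protein partners of snRNAs were read from the same fit. Of 104 genes in 8 lists of snRNP proteins and snRNA biogenesis factors, all tested, 67 were lower and 37 higher with a median log2 fold change of -0.03, beside 8375 lower and 8584 higher with a median of 0.00 over all genes tested. The 1 call among them, a share no greater than the 1.46% of all genes called lower, was INTS2, a subunit of the Integrator complex that cleaves nascent snRNAs. INTS2 was at 118.8, 115.2, 117.4 and 121.3 CPM in shScramble and at 99.9, 95.6, 112.3 and 102.6 CPM in shIER5L, without overlap. Its log2 fold change was -0.20 (SE 0.0525, adjusted p = 0.0394), and it was not called in 7 of the 8 fits that left out a sample, with adjusted p up to 0.122. None of the other 14 Integrator subunits was called, with INTS13, INTS8 and INTS7, the highest of the list, between -0.03 and 0.04.

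The 3 proteins specific to the U1 snRNP did not pass the test. SNRPA, which binds a U1 stem loop, was at 14.8 ± 0.903 against 12.7 ± 1.22 CPM without overlap (SD, n = 4, log2 fold change -0.22, adjusted p = 0.246), and SNRNP70 and SNRPC had log2 fold changes of -0.06 and 0.11. Of the 15 tri-snRNP proteins 14 were below 0, by 0.12 at most, among them the helicase SNRNP200 (log2 fold change -0.11, adjusted p = 0.129). The U2 proteins had a median of -0.03 with SF3B1, the most counted, at 0.05, and the Sm and LSm ring proteins a median of -0.04 with SNRPD2 at -0.13 (adjusted p = 0.105). The minor spliceosome proteins, the snRNA transcription factors and the assembly factors had medians of 0.03, -0.03 and 0.00. Over the 8 lists, 10 of 104 genes were lower and 1 higher at an unadjusted p under 0.05, beside 6.78% and 9.69% of all genes tested.

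Other short non-coding RNAs were set beside the snRNA genes. Of 23 such genes, 11 were tested, none was called and none had an unadjusted p under 0.05 (edgeR quasi-likelihood test), and limma voom and DESeq2 called none either. RN7SL2 was at 443.8 ± 38.7 against 463.4 ± 35.8 CPM, SCARNA7 at 170.3 ± 11.2 against 178.2 ± 10.8 and SNORA73B at 44.6 ± 5.75 against 44.1 ± 4.3 (SD, n = 4). Whether these and the U1 genes differed in their response was not tested.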

How the data were processed

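RNA-seq of PC3 cells was analysed in 8 samples, 4 shScramble and 4 shIER5L, grouped by their labels. The authors deposited 1 table of raw counts per Ensembl gene. Per the file header and the study's methods, STAR 2.7.5c aligned paired 100 bp reads to hg38, SAMtools 1.15 dropped PCR duplicates, and featureCounts 2.0.3 counted the primary alignment of each read on exons, with both mates counted separately and without regard to strand. Removing duplicates caps the reads of very short genes. A read on exons of more than 1 gene was counted for none. Coordinates of all 1900 snRNA genes equalled GENCODE 44 (GRCh38), the source of gene types, sequences and hosts.

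The 16959 genes that passed filterByExpr were tested with the quasi-likelihood test of edgeR 4.0.16 (R 4.3.3) after TMM scaling, and p-values were adjusted by Benjamini-Hochberg over all of them. For the standard error, the size of the log2 change was divided by the root of the F statistic. CPM use the TMM-scaled library sizes. Alternatives were RLE factors, no factors, other filters, the likelihood ratio test, limma 3.58.1 voom, DESeq2 1.42.0, the replicate number as a block, summed identical copies and leaving out each sample. Tested on simulated counts over the 16959 genes, the fit recovered 163 of 200 genes changed by 1 on the log2 scale, with 9 false calls. The changed genes were drawn from all genes tested, so this does not give the recovery for snRNA genes, whose standard errors were larger, or for smaller changes. Between samples of a group, the chi-square of the counts per degree of freedom was 2.8 to 11.6, part of which comes from counting both mates. No pair held identical values, and each sample was counted once.

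The members and gene lists were chosen with earlier results of these data known. The genes named are the 8 U1 members and the 3 members of every other family with the most counts, called members, the 4 higher and 4 lower tested members with the smallest p, 2 genes on each side of the 20-count threshold, called list genes, the list genes of highest mean on which a statement turns, and hosts of named members. Further members named for a lone sample, an identical copy or an octamer were chosen after their values were seen. Some marker genes and sequences are not reported here.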

Additional observations from a re-analysis of the deposited data

Results flagged for a closer look

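Dixon's criterion was applied to 86 groups of 4 samples (the 7 family sums and the members chosen by the naming rule, in each group). In 5 of these a sample stood apart. Chance flags about 1 in 20 groups by this criterion, so 5 of 86 is near the number that chance alone would give. RNU4-2 was at 10.5 CPM in shIER5L replicate 2, against 7.26 to 7.67 in the other shIER5L samples. RNU4-1 was at 3.9 CPM in shScramble replicate 4, against 6.06 to 6.13 in the others. RNU6-2 was at 1.31 CPM in shScramble replicate 2, against 1.65 to 1.7. The summed U2 level was 2.91 CPM in shIER5L replicate 1, against 4.33 to 4.52, and the summed U6 level was 36.8 CPM in shIER5L replicate 4, against 29 to 30.2. The cause was not tested for any of them.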

How the results depend on the processing

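Of 4 members called, 2 were called when every gene with at least 20 counts was kept, 2 with limma voom (RNVU1-4 and RNVU1-3 in both) and 0 to 3 with a sample left out. When every gene with at least 1 count was kept, RNVU1-34 was called (-0.60, adjusted p = 0.045) and RNVU1-25 was not. With the replicate number as a block, 3 members were called and RNVU1-25 was not (-0.55, adjusted p = 0.061). Same-numbered samples did not deviate together (correlations -0.0866, 0.143, -0.0833 and 0.204), so the numbers were not taken as pairs. DESeq2 called 3 and gave no adjusted p for RNVU1-3. Of the protein list genes, 3 were called with library totals alone (INTS2, SNRPD2 and PRMT5), 3 with DESeq2 (INTS2, SNRPD2 and GEMIN4), 0 when every gene with at least 20 counts was kept and 0 to 1 with a sample left out (INTS2 without shIER5L replicate 3, ZCRB1 without shIER5L replicate 4). Of the other short RNAs, 1 was called when every gene with at least 1 count was kept (RN7SL3, 0.26, adjusted p = 0.00143). Its rise rested on shIER5L replicate 2, at 129.9 CPM against 67.1 to 80.4 in all other samples of both groups. In the main edgeR quasi-likelihood fit RN7SL3 was not called (log2 fold change 0.27, SE 0.137, adjusted p = 0.349). The near-zero changes of RNU4-2 (-0.17 to 0.08) and RNU4-1 (-0.12 to 0.14) turned sign with a sample left out, and RNU6-2 did when its 7 identical genes were summed (0.13). The other 450 of 459 single-gene values kept their direction. The U1 sum ran from -0.41 to -0.31 with a sample left out. The cause of these changes was not tested.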

Other observations

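Low counts were more often even than odd across the table, where both mates of a pair are counted separately. Among values from 1 to 20, 65.7% were even over all genes and 55.3% over the 161 snRNA genes. All U1 genes of the table, the 119 below 20 counts included, summed to 67.9 ± 5.16 CPM in shScramble and 52.9 ± 4.1 in shIER5L (SD, n = 4), and all 1310 U6 genes to 45.7 ± 3.29 and 45 ± 4.75.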
